A study of Mus musculus with 27 samples.

Results

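Tibialis anterior muscles taken 14 days after volumetric muscle loss (VML) were compared with muscles taken 3 days after it, using all 6 samples of day 14 and all 5 of day 3 out of 27 samples in the series. VML is the removal of more muscle than the tissue can rebuild. In this model 40% of the tibialis anterior was cut out of 8-week-old male C57BL/6 mice, and the whole remaining muscle was explanted for RNA. The sources disagree on whether 1 or both legs were operated on, and nothing in them says whether the samples of a group came from separate animals, so p-values measure the spread between these samples. The other samples were 5 of muscle without injury, 6 of day 7 and 5 of day 21. They entered the comparison through the shared estimate of the spread and through the filter that chose the genes tested. Messenger RNA was selected by its poly(A) tail and sequenced without regard to strand, so reads of a gene and of an antisense or overlapping neighbour could not be told apart.

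An injured muscle is first entered by neutrophils and then by monocytes, which become macrophages that take up dead fibres. At the same time satellite cells, the stem cells of muscle, divide as myoblasts, fuse into new fibres that carry embryonic sarcomere proteins, and exchange these for adult ones as the fibres mature. Fibroblasts and fibro-adipogenic progenitors lay down a provisional matrix, which is removed after a small injury and is known to persist as a scar after a large one.

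Expression was given as FPKM, the fragments of a gene divided by its length in kilobases and by a number of reads that the authors set for each sample. Total reads per sample ran from 14376395 to 19819115 at day 3 and from 14555887 to 19930123 at day 14. The number of reads to which FPKM was scaled was on average 1.25 times the sample's own total at day 3 and 1.04 times at day 14, and reads of the mitochondrial genome were 8.5% to 16.8% of the total at day 3 and 12.3% to 28.5% at day 14. Libraries did not all lie with their labels. The library labelled day 3 replicate 5 was nearest to the average of day 7, and day 7 replicate 5 was nearest to that of day 3. Whether these libraries carry each other's labels was not tested, and values with day 3 replicate 5 hold as labelled. At day 14, replicate 1 was nearest to the average of day 7 and replicates 3 and 6 to that of day 21. All libraries were kept, and counts are also given without day 3 replicate 5.

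The summed levels of cell type markers set the frame for the comparison. Markers of monocytes and macrophages (Ptprc, Adgre1, Cd68, Csf1r and Ccr2) summed to 49.8 to 322 FPKM in the day 3 samples and to 9.003 to 21.3 at day 14, with no overlap, and all 5 were called lower at day 14. Neutrophil markers (S100a8, S100a9, Cxcr2, Csf3r and Retnlg) also separated, at 20.1 to 37.6 against 2.12 to 12.99 FPKM, with all 3 tested ones called lower. Muscle fibre markers (Acta1, Ckm, Mylpf, Tnnt3 and Myh4), which define the labelled tissue, were high in every sample, at 19578 to 51861 FPKM at day 3 and 35323 to 76146 at day 14, and none was called. The sums for satellite cells and myoblasts, fibroblasts, tendon, endothelium, pericytes, Schwann cells, adipocytes, T, B and NK cells, red blood cells and skin overlapped between the groups. For satellite cells and myoblasts the overlap came from day 3 replicate 5, at 80.1 FPKM. The other day 3 samples were at 220 to 321 and day 14 at 100 to 171, and 1 of the 5 markers was called lower. In RNA of a whole muscle, fewer cells of a type and less RNA per cell cannot be told apart.

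**Figure D1:**
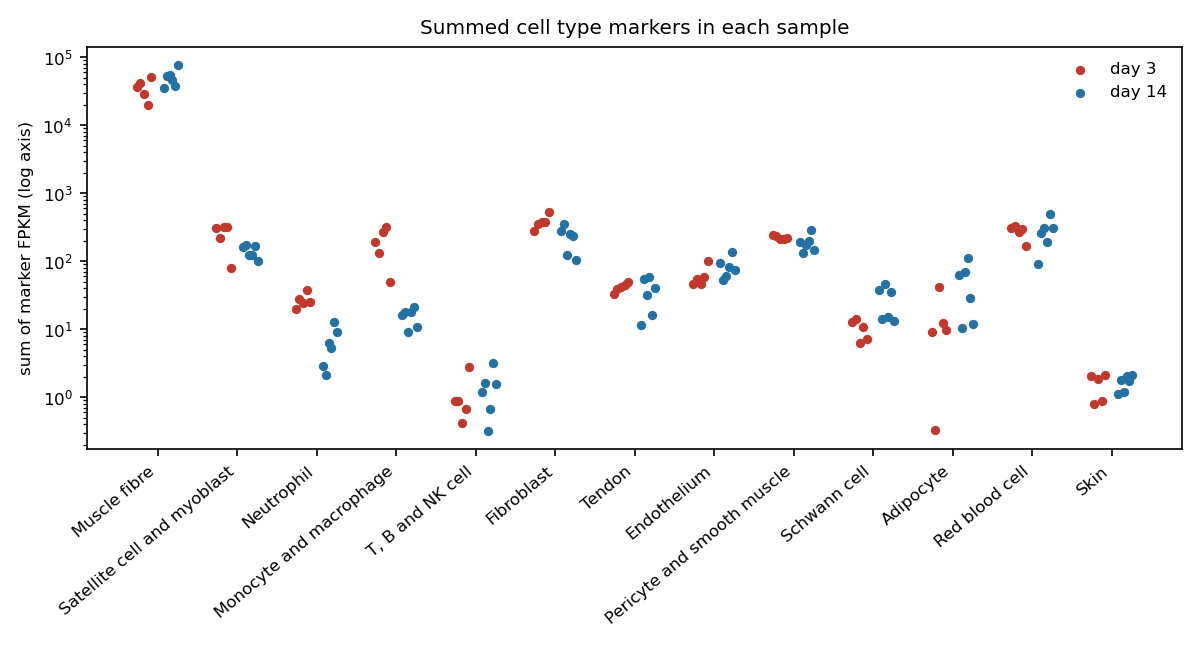
Summed FPKM of the markers of 13 cell types in each day 3 sample (red) and each day 14 sample (blue), on a log axis. Monocyte and macrophage markers lie between 49.8 and 322 at day 3 and between 9.003 and 21.3 at day 14, while muscle fibre markers overlap.

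Of the 14630 genes that reached an FPKM of 0.5 in 5 or more samples, 2738 (18.7%) were called different between day 14 and day 3 (limma, Benjamini-Hochberg adjusted p under 0.05). Of these, 736 (5.03% of those tested) were higher and 2002 (13.7%) were lower at day 14, and the median log2 fold change of all genes tested was -0.005. The decreases were the larger ones: 710 genes fell by over 2-fold and 127 by over 4-fold, against 107 and 9 that rose as much. Samples of the groups did not overlap for 1540 genes (10.5%), 382 higher (2.61%) and 1158 lower (7.92%). Among the 2002 genes that were lower, 1948 had the highest of the 5 group averages at day 3. The 736 higher genes were more mixed, with the highest average at day 14 for 304, without injury for 238, at day 21 for 178 and at day 7 for 16. Counts of called genes in the lists that follow are to be read beside the shares of all genes, 5.03% higher and 13.7% lower.

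Without day 3 replicate 5 the calls numbered 3334 (22.8% of genes tested), with 1049 higher (7.17%) and 2285 lower (15.6%). Leaving out day 3 replicate 4 gave 1668 calls (316 higher and 1352 lower) and leaving out day 3 replicate 3 gave 1773 (346 higher and 1427 lower), so the number rested on these libraries more than on the others. Scaling mattered for the split. The share of calls that were lower was 73.1%, and it was 93.8% when every sample was scaled to the same sum of FPKM, called equal-sum scaling here (2386 of 2544), which moved the median of all genes to -0.28. With each sample's own total of reads it was 90.9% (2727 of 3001, median of all genes -0.18), with quantile normalization 55.5% (1772 of 3190) and with sample quality weights 61.7% (2980 of 4830). Unless another unit is named, changes given here are log2 fold changes, relative to the authors' scaling, with its median of -0.005. Of the 736 higher genes 96 were called under all 26 alternatives, and of the 2002 lower genes 1260 were.

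**Figure D2:**
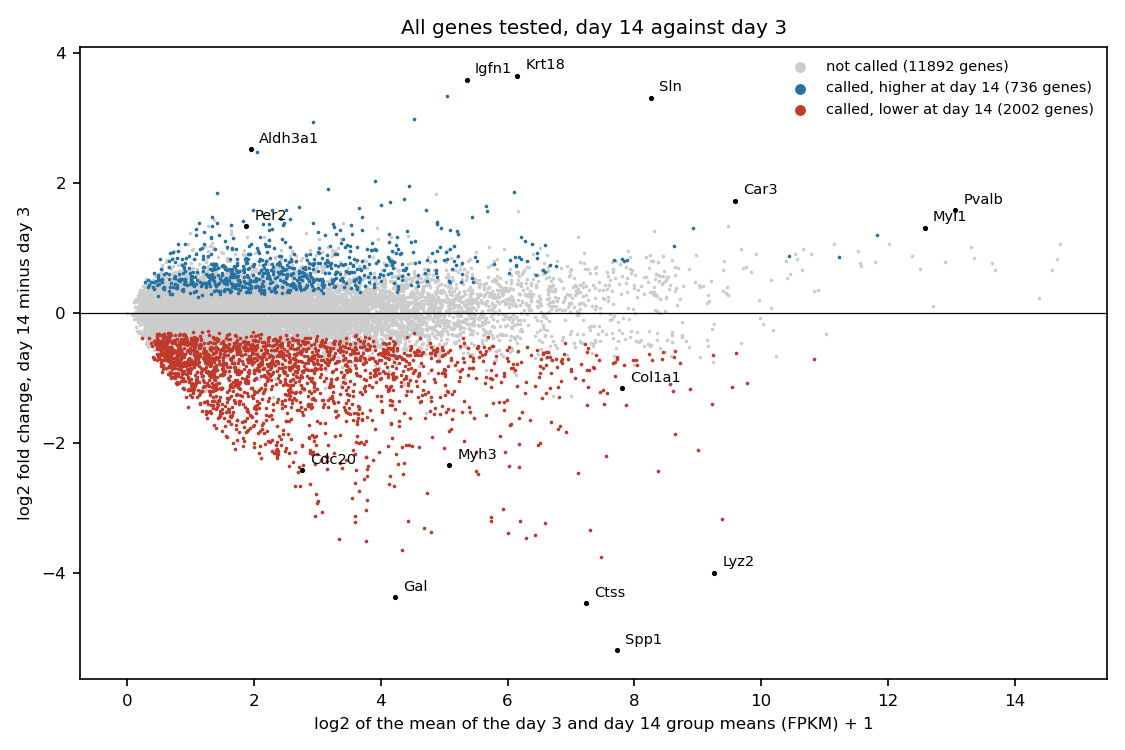
Log2 fold change from day 3 to day 14 of the 14630 genes tested (vertical axis) against their average level in both groups (horizontal axis, log2 of FPKM + 1). Blue points are the 736 genes called higher and red points the 2002 called lower, and the lower genes reach -5.19 for Spp1 where the higher ones end at 3.65 for Krt18.

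The 10 largest decreases among called genes without overlap were those of Spp1, Ctss, Gal, Lyz2, C1qb, Gpnmb, Ms4a6d, Slpi, Cd68 and Tyrobp, most of which are known from macrophages. Spp1 (ENSMUSG00000029304, chromosome 5 from 104435118 to 104441050, plus strand) encodes osteopontin, a secreted protein of activated macrophages. Its FPKM in day 3 replicates 1 to 5 was 394, 261, 629.6, 763 and 15.5, and at day 14 it ran from 2.55 to 13.5 with a median of 5.07. Replicate 5 was far below the other day 3 samples yet above every day 14 sample, and the log2 fold change was -5.19 (SE 0.82, adjusted p = 0.000245). Lyz2, the lysozyme of phagocytes, had 1212, 858, 1689, 1806 and 259 FPKM at day 3, in the same order of replicates, and from 34.1 to 82.4 with a median of 68.4 at day 14. No samples overlapped, and Lyz2 fell by 3.998 on the log2 scale (SE 0.59, adjusted p = 0.000164). For Ctss, a cathepsin used in antigen presentation, the log2 fold change was -4.47 (SE 0.64, adjusted p = 0.000147), and for Gpnmb, a membrane glycoprotein of lipid-laden macrophages, it was -3.64 (SE 0.65, adjusted p = 0.000516). Gal, the neuropeptide galanin, was measured at 53.98, 22.7, 60.6, 37.2 and 1.52 FPKM at day 3 and from 0 to 0.655 with a median of 0.0709 at day 14. It was therefore near its floor at day 14, and its fold change of -4.37 (SE 0.80, adjusted p = 0.000606) on log2(FPKM + 1) understates the ratio. Slpi, an inhibitor of leukocyte proteases, fell by 3.49 on the same scale. All 10 calls held under each of the 26 alternatives.

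The 10 largest increases among called genes without overlap were those of Krt18, Igfn1, Krt8, Sln, Gm48395, Gm34006, Aldh3a1, Ighg2c, Ctxn3 and Retnla. Krt18 (ENSMUSG00000023043, chromosome 15 from 102028180 to 102032027, plus strand) and Krt8 (ENSMUSG00000049382, chromosome 15 from 101996698 to 102004482, minus strand) encode the partner keratins of simple epithelia, and the genes lie 23697 bases apart. Krt18 had 5.74, 14.9, 8.33, 9.896 and 8.503 FPKM in day 3 replicates 1 to 5 and from 71.8 to 176 with a median of 130.4 at day 14. Every day 14 sample was above every day 3 sample, with a log2 fold change of 3.65 (SE 0.997, adjusted p = 0.0113). Krt8 followed at 4.28, 3.59, 4.704, 5.36 and 6.05 FPKM against values from 34.4 to 74.9 with a median of 62.4, again with no overlap, and a log2 fold change of 3.34 (SE 0.84, adjusted p = 0.00641). The skin keratins Krt5, Krt14, Krt10 and Krt1 and the skin protein Lor summed to 0.786 to 2.12 FPKM at day 3 and 1.11 to 2.16 at day 14, and the 1 tested was not called. Of 11 tested genes on a list of keratins and genes of the late muscle signature, 3 rose and 1 fell. The study drew that signature from day 21 against muscle without injury in this series. The list was written with earlier results of these data known and is thus not independent of them. Krt8, Krt18 and Sln rose, and the epithelial keratin Krt80 fell by 0.79.

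Igfn1, an immunoglobulin-like and fibronectin domain protein of skeletal muscle, had 2.701, 3.88, 5.65, 7.44 and 7.53 FPKM at day 3 and from 47.00 to 87.6 with a median of 78.2 at day 14, with a log2 fold change of 3.59 (SE 0.73, adjusted p = 0.00127). Without injury its mean was 3.35 FPKM. Sln, sarcolipin, a small inhibitor of the calcium pump of the sarcoplasmic reticulum, had 34.4, 45.9, 34.6, 55.8 and 138 FPKM at day 3 and from 334 to 686 with a median of 588 at day 14. Replicate 5 was the highest day 3 sample for Sln, and no samples overlapped. The log2 fold change was 3.31 (SE 1.08, adjusted p = 0.0318), and Sln was called in 15 of 26 alternatives. Aldh3a1, an aldehyde dehydrogenase, was at 0.222, 0.06296, 0.215, 0.136 and 0.0484 FPKM at day 3 and rose to between 4.46 and 6.97 at day 14. The noncoding Gm48395 and Gm34006, the latter annotated as antisense, rose by 2.98 and 2.93. Ctxn3, a small membrane protein gene, rose by 1.95, and Retnla, known from alternatively activated macrophages and fat, by 1.91. Leaving out 1 library raised the adjusted p above the threshold for Sln (without day 3 replicates 1, 2, 3 and 4 and day 14 replicates 3 and 4, 0.0522 to 0.0778) and Retnla (day 3 replicates 2, 4 and 5 and day 14 replicates 4 and 5, 0.0519 to 0.0768). Equal-sum scaling and scaling to the own total of reads each ended the call of Sln.

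Most neutrophil genes tested, and several genes of inflammatory signals, were lower at day 14. Of the 17 neutrophil genes listed 7 passed the FPKM filter, of which 6 fell and none rose (median log2 fold change -1.45). The tested members had a median level of 2.15 at day 3 on log2(FPKM + 1). It was 0.40 at day 14, 0.37 without injury and 0.22 at day 21. With 5 samples at day 3, such genes could pass the filter through day 3 alone, which favoured decreases among them. Genes high at day 14 alone, with 6 samples, could pass as well. S100a8 and S100a9, the calgranulins of neutrophil cytoplasm, and Csf3r, the receptor for the growth factor of granulocytes, had log2 fold changes of -1.85 (SE 0.57, adjusted p = 0.0246), -1.87 (SE 0.56, adjusted p = 0.0187) and -1.45 (SE 0.36, adjusted p = 0.00656). S100a8 was at 6.77, 14.2, 8.41, 21.00 and 13.3 FPKM at day 3 and from 1.296 to 4.16 with a median of 2.901 at day 14, with every day 3 sample above every day 14 sample. Of 21 cytokines and chemokines listed 12 were tested, with the same limit. Of these 6 fell (median -0.86), led by the monocyte attractants Ccl7 and Ccl2. Ccl7 was at 16.2, 14.4, 25.6, 30.03 and 14.6 FPKM at day 3 and from 0 to 6.04 with a median of 1.16 at day 14 and its log2 fold change was -3.12 (SE 0.58, adjusted p = 0.00068), against -2.37 (SE 0.55, adjusted p = 0.00338) for Ccl2. Il1b, the interleukin 1 beta gene, did not pass, at -0.84 (SE 0.38, adjusted p = 0.126), although its samples did not overlap. It was called with only day 3 and day 14 in the fit (adjusted p = 0.00467). By the adjusted p, the call depended on single libraries for S100a8 (without day 3 replicates 2 and 4 and day 14 replicate 1, 0.0503 to 0.0818) and S100a9 (day 14 replicate 2, 0.0509).

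Most of the monocyte and macrophage genes tested fell. Of 15 tested monocyte and early macrophage genes 14 fell (median -1.57), of 18 phagocyte and lysosome genes 16 fell (median -1.90), and of 17 genes of resident or alternatively activated macrophages 10 fell (median -1.66). None of them rose. Retnla, also known from alternatively activated macrophages, is not on these lists and was among the largest increases above. Ccr2, the receptor by which monocytes leave the blood, was at 4.42, 2.64, 6.22, 7.62 and 2.91 FPKM at day 3 and from 0.4499 to 1.31 with a median of 0.857 at day 14, a log2 fold change of -1.57 (SE 0.28, adjusted p = 0.00057). Spi1, the transcription factor PU.1 of myeloid cells, changed by -2.56 (SE 0.45, adjusted p = 0.000501). Both were lower in every day 14 sample than in any day 3 sample. Arg1, arginase of early macrophages, fell by 1.52 (SE 0.47, adjusted p = 0.025). Omission of 1 library took the adjusted p past the threshold for Arg1 (without day 3 replicates 3 and 4, 0.0773 to 0.0908).

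The complement genes C1qa, C1qb and C1qc, which tissue macrophages make, had log2 fold changes of -3.34, -3.76 and -3.39. C1qb was at 315, 279, 443, 499 and 125 FPKM at day 3 and from 11.5 to 36.7 with a median of 22.5 at day 14, while muscles without injury averaged 7.43 and day 21 averaged 16.02. Day 3 replicate 5 was the lowest of its group, still above all day 14 samples. Trem2, a lipid receptor of phagocytes, and Lgals3, galectin 3, fell by 3.22 and 2.47. Mrc1, the mannose receptor CD206, was at 7.83, 7.83, 8.92, 8.95 and 4.802 FPKM at day 3 and from 0.938 to 2.66 with a median of 1.67 at day 14. The day 3 values were close apart from replicate 5, and the log2 fold change was -1.67 (SE 0.29, adjusted p = 0.000483). Cx3cr1, the fractalkine receptor, and Folr2, a folate receptor of resident macrophages, changed by -1.83 and -1.82. Families read from gene symbols, chosen after their values were seen, gave 7 of 9 membrane-spanning 4A genes, 5 of 6 Fc receptor genes and 8 of 12 cathepsin genes lower at day 14, and none higher. Other families read in this way were less uniform. Of 15 CC chemokine ligands 7 were lower and 1 was higher, and of 10 S100 genes 6 were lower and 1 was higher. C1qa, C1qc and Cx3cr1 were chosen after their values were seen.

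Of 11 tested MHC class II genes, which present antigen, 8 fell and none rose (median -1.06). The number that fell was 6 without day 3 replicate 1, 3, 4 or 5 or day 14 replicate 3 or 6. Cd74, the invariant chain, was at 265, 147, 268, 277 and 367 FPKM at day 3 and from 53.5 to 152 with a median of 110.3 at day 14. Here replicate 5 was the highest day 3 sample, unlike for the macrophage genes above, and replicate 2 lay just below the highest day 14 sample. Log2 fold changes were -1.399 (SE 0.37, adjusted p = 0.00984) for Cd74, -1.13 (SE 0.32, adjusted p = 0.013) for H2-Ab1 and -1.06 (SE 0.36, adjusted p = 0.0376) for H2-Aa, which together form or load the class II molecule. Of 17 interferon-response genes 6 fell, with a median of -0.72, and 2 fell without day 3 replicate 5, 11 without day 3 replicate 2 and 3 without day 3 replicate 1 or 4 or day 14 replicate 2 or 3, against 10 with equal-sum scaling. Ifi204 had the largest decrease of them, at -1.36 (SE 0.27, adjusted p = 0.000931). None of 7 tested T, B and NK cell genes was called (median 0.03, and 1 gene without day 14 replicate 3 or 5), and 13 of the list's 20 genes were too low to be tested. Leaving out 1 library raised the adjusted p above the threshold for H2-Aa (without day 3 replicates 1, 3, 4 and 5 and day 14 replicates 1, 3 and 6, 0.053 to 0.103).

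Among immunoglobulin genes the calls were increases. Ighg2c, the constant region of an IgG2 heavy chain, was at 0.181, 0.231, 0.2001, 0.596 and 0.106 FPKM at day 3 and from 4.83 to 8.19 with a median of 5.73 at day 14, with no overlap and a log2 fold change of 2.47 (SE 0.30, adjusted p = 6.38e-05). Igkc, the kappa light chain constant region, ran from 1.91 to 95.5 with a median of 5.17 FPKM at day 14, against 2.07, 2.18, 1.28, 1.65 and 2.03 at day 3. Its groups overlapped, and its log2 fold change was 2.03 (SE 0.70, adjusted p = 0.0414). Of 8 tested immunoglobulin genes, a family chosen after its values were seen, these 2 were called and none was lower. The number called was 1 with equal-sum scaling or the own total of reads, 1 with any single day 3 sample or with day 14 replicate 1 or 5 left out, and 4 without day 14 replicate 3. The B cell marker Cd79a was not called, at 0.12 (SE 0.22, adjusted p = 0.76). Igkc was chosen after its values were seen. By the adjusted p, the call depended on single libraries for Igkc (without day 3 replicates 1, 2, 3, 4 and 5 and day 14 replicates 1 and 5, 0.0509 to 0.109). The call of Igkc was lost with equal-sum scaling and also with the own total of reads.

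Genes of dividing cells fell. Of 18 tested mitosis genes all 18 fell (median -1.48), with every 1 of them called whichever sample was left out, and 17 of the 18 had no overlap between the groups. Of 20 tested DNA replication genes 17 fell and none rose (median -0.97), 18 without day 3 replicate 5 and 11 without day 3 replicate 4. Mki67, the proliferation antigen Ki-67, was at 3.86, 4.27, 5.08, 6.13 and 2.38 FPKM at day 3 and from 0.433 to 1.44 with a median of 1.03 at day 14, a log2 fold change of -1.45 (SE 0.27, adjusted p = 0.000683). Cdc20, an activator of the anaphase-promoting complex, was at 9.41, 9.79, 13.05, 13.3 and 6.29 FPKM at day 3 and from 0.468 to 1.95 with a median of 1.08 at day 14. Its day 3 replicate 5 was the lowest of the group and still over 3 times the highest day 14 sample, and the log2 fold change of -2.42 (SE 0.37, adjusted p = 0.00022) was the largest on the list. Ccnb2, a mitotic cyclin, and Plk1, a mitotic kinase, changed by -2.14 and -1.74. Among replication genes, Mcm5, a subunit of the replicative helicase, was at 4.12, 3.904, 7.14, 8.51 and 2.13 FPKM at day 3 and from 0.3201 to 1.14 with a median of 0.785 at day 14. Day 3 and day 14 did not overlap for Mcm5, with a log2 fold change of -1.73 (SE 0.34, adjusted p = 0.00106), and Pcna, the sliding clamp of DNA polymerase, changed by -0.98 (SE 0.23, adjusted p = 0.0036). Muscles without injury averaged 10.3 FPKM of Pcna, close to the day 14 median of 11.3, whereas for Cdc20 they averaged 0.231. Ccnb2 and Plk1 were chosen after their values were seen.

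The promoters of these genes are shown because the members moved together. Promoter sequences were RefSeq's for build GRCm38.p6, from 250 bases before to 50 bases after the start, and 18 of the 21 mitosis genes and 17 of the 21 replication genes had one. The letters TTTGAA (the CHR element), CCAAT and TTTNNCGC (part of the site of E2F factors) were searched on both strands, with matches allowed to overlap, and are in capitals in either orientation. TTTGAA was in 77.8% of mitosis promoters and 11.8% of replication promoters, against 18.1% of the 27025 promoters kept. CCAAT was in 94.4% and 64.7%, against 37.9%. TTTNNCGC was in 11.1% and 47.1%, against 5.27%. A match is a run of letters and not a measured site, and many promoters outside these lists hold the same runs. The mitosis promoters of Ccnb2, Plk1 and Cdc20 hold TTTGAA and CCAAT, and the replication promoters of Mcm5 and Mcm6 hold TTTNNCGC and CCAAT.
Ccnb2, chr9:70421505-70421804, minus strand: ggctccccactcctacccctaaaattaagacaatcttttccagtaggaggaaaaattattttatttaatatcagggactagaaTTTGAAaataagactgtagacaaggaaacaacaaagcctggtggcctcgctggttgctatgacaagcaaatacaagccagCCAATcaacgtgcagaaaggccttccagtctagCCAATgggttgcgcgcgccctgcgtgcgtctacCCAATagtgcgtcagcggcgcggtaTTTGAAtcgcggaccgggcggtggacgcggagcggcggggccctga
Plk1, chr7:122159185-122159484, plus strand: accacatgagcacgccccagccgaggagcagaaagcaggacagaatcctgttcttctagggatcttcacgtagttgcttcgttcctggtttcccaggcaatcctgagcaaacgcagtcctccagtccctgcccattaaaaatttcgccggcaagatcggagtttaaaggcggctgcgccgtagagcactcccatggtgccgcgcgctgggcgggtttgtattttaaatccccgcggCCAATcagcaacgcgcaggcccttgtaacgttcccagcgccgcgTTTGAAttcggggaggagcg
Cdc20, chr4:118437294-118437593, minus strand: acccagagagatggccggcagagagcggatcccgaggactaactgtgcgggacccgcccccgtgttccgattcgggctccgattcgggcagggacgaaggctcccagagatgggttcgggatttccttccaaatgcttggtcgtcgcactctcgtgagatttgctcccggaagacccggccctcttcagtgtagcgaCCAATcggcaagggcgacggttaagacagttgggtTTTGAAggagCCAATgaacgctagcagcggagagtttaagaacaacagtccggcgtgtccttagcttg
Mcm5, chr8:75109259-75109558, plus strand: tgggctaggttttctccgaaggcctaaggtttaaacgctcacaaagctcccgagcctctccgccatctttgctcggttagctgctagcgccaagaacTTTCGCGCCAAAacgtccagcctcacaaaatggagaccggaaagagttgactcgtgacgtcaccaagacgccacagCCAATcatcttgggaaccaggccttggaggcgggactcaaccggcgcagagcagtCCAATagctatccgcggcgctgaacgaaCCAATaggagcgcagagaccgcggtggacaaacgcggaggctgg
Mcm6, chr1:128359656-128359955, minus strand: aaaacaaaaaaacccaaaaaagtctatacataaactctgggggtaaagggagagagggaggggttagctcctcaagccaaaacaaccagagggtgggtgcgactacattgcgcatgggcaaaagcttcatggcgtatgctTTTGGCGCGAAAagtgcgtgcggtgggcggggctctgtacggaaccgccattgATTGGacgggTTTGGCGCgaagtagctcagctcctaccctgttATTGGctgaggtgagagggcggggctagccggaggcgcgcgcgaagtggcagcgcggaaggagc
Of these genes, Ccnb2, Plk1 and Mcm6 were chosen after their values were seen.

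Part of the genes of protein synthesis and folding fell. Of 20 heat shock and endoplasmic reticulum chaperones 10 fell and 1 rose (median -0.69), or none rose with equal-sum scaling. Those that fell act mostly in the endoplasmic reticulum: Sdf2l1, a chaperone cofactor, changed by -1.55 (SE 0.35, adjusted p = 0.00274), the disulfide isomerase Pdia3 by -1.13 (SE 0.24, adjusted p = 0.00191) and the chaperone Hspa5 (BiP) by -0.70 (SE 0.24, adjusted p = 0.0407). Pdia3 was at 68.6, 66.1, 83.7, 98.2 and 48.5 FPKM at day 3 and from 26.3 to 39.3 with a median of 31.9 at day 14, with no overlap. The 1 that rose was the heat-inducible Hspa1a, at 0.73 (SE 0.25, adjusted p = 0.0405). None of 31 proteasome subunits was called (median 0.02), and 4 were higher without day 14 replicate 1. Of 81 tested cytosolic ribosomal protein genes, a family chosen after its values were seen, 40 fell and none rose (median -0.54). The number that fell was 74 with equal-sum scaling (median -0.89) and also 74 with the own total of reads (median -0.80). It was 46 without day 3 replicate 5, 20 without day 3 replicate 4, 23 without day 3 replicate 3, 26 without day 3 replicate 2 and 25 without day 14 replicate 1. Rpl3 was at 116, 136, 162, 188 and 63.7 FPKM at day 3 and from 44.1 to 59.7 with a median of 48.8 at day 14, with no overlap and a log2 fold change of -1.305 (SE 0.28, adjusted p = 0.00181). Without injury it averaged 18.1 FPKM, below every sample of both days. Ribosomal protein genes have many processed pseudogenes that could share their reads. None of 77 mitochondrial ribosomal protein genes fell and 1 rose, with a median of 0.10 that turned to -0.24 with equal-sum scaling. Pdia3, Hspa5 and Rpl3 were chosen after their values were seen. Omission of 1 library took the adjusted p past the threshold for Hspa5 (without day 3 replicates 1, 3 and 4 and day 14 replicates 2, 3, 5 and 6, 0.0524 to 0.153) and Hspa1a (day 3 replicates 1, 3 and 4 and day 14 replicates 1, 5 and 6, 0.0564 to 0.12). Equal-sum scaling ended the calls of Hspa5 and Hspa1a, and scaling to the own total of reads ended that of Hspa1a alone.

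Of 18 tested genes of the integrated stress response and serine synthesis 10 fell and none rose (median -0.66). Phgdh and Psat1, consecutive enzymes of serine synthesis, led them. Phgdh was at 12.1, 9.296, 15.8, 17.3 and 3.21 FPKM at day 3 and from 0.7298 to 2.46 with a median of 1.604 at day 14, and its log2 fold change was -2.18 (SE 0.41, adjusted p = 0.000732). Psat1 was at 7.33, 6.58, 9.26, 11.4 and 2.51 FPKM at day 3 and from 0.359 to 1.28 with a median of 0.872 at day 14, with a log2 fold change of -2.09 (SE 0.33, adjusted p = 0.000245). In both the groups did not overlap and replicate 5 was the lowest day 3 sample. Mthfd2, an enzyme of mitochondrial folate metabolism, and Asns, asparagine synthetase, changed by -1.496 and -1.06. The transcription factors that give the list its name did not pass: Atf4 was at 0.12 (SE 0.19, adjusted p = 0.71), Atf5 at 0.15 (SE 0.20, adjusted p = 0.651) and Ddit3 at 0.69 (SE 0.30, adjusted p = 0.107). Psat1, Mthfd2 and Asns were chosen after their values were seen. Conversely, the call was made for Ddit3 without day 14 replicate 1 (adjusted p = 0.0369).

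Calls among matrix genes were mostly decreases. Of 23 tested genes of fibrillar collagens and their processing 14 fell (median -0.74), and of 17 provisional and matricellular genes 10 fell (median -1.04). Tendon-like and mature matrix genes gave 3 of 23 lower (median 0.04), close to the 13.7% of all genes called lower, basement membrane genes 1 higher and 1 lower of 17 (median 0.14, and 3 higher and none lower without day 3 replicate 5), and fibro-adipogenic progenitor genes 3 of 15 lower (median -0.11). Of the basement membrane genes 11.8% were called, against 18.7% of all genes. Progenitor genes were lower in 20%, against 13.7% of all genes. With the own total of reads 6 tendon-like and 5 progenitor genes were lower, and no basement membrane gene was higher in most of the fits with 1 sample left out. The difference between the lists was not tested. That of the basement membrane genes turned to -0.19 and that of the tendon-like genes to -0.25 with equal-sum scaling.

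Timp1, an inhibitor of matrix proteases, was at 59.8, 100.2, 85.7, 87.8 and 41.6 FPKM at day 3 and from 7.39 to 20.6 with a median of 13.6 at day 14, a log2 fold change of -2.44 (SE 0.42, adjusted p = 0.000469) without overlap. Cthrc1, a secreted protein of activated fibroblasts, was at 21.2, 31.4, 36.1, 25.04 and 25.2 FPKM at day 3 and from 0.746 to 14.8 with a median of 4.71 at day 14, a log2 fold change of -2.51 (SE 0.45, adjusted p = 0.000525). Day 14 was spread over a wide range for Cthrc1, below all of day 3. Tnc, tenascin C of provisional matrix, was at 14.05, 22.6, 15.2, 13.8 and 3.57 at day 3 and from 1.304 to 3.25 with a median of 1.67 at day 14 and changed by -2.21 (SE 0.34, adjusted p = 0.000226). Lox, which cross-links collagen, changed by -1.62 (SE 0.28, adjusted p = 0.0004), and Col5a1, which controls fibril diameter, by -1.26 (SE 0.28, adjusted p = 0.00229). Timp1 was chosen after its values were seen.

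Among the main fibrillar collagens the calls divided. Col1a1 was at 207, 272, 294, 311 and 397 FPKM at day 3 and from 61.9 to 260.3 with a median of 156 at day 14, with a log2 fold change of -1.16 (SE 0.37, adjusted p = 0.0309). The groups overlapped. Col1a2 and Col3a1 did not pass, at -0.72 (SE 0.30, adjusted p = 0.0979) and -0.48 (SE 0.37, adjusted p = 0.39), and Col3a1 had a day 14 median of 172 FPKM beside day 3 values of 128, 140.0, 179, 163 and 291. At day 14 the means of Col1a1 and Col3a1 were 148 and 142 FPKM, against 23.7 and 19.4 without injury. Fn1, fibronectin, changed by -1.13 (SE 0.28, adjusted p = 0.00578). Thy1 and Cd248, surface proteins of stromal cells, and Wisp2, a secreted matricellular protein, were the 3 progenitor genes that fell (-1.14, -1.11 and -1.69), while Pdgfra, their defining receptor, was at -0.32 (SE 0.15, adjusted p = 0.153). Bgn, the proteoglycan biglycan, fell by 1.37. Agrn, agrin of the synaptic basement membrane, rose by 0.72 and Col6a3 of microfibrils fell by 0.87. Cd248 was chosen after its values were seen. Leaving out 1 library raised the adjusted p above the threshold for Col1a1 (without day 3 replicates 3, 4 and 5 and day 14 replicates 3 and 6, 0.0621 to 0.0821), Agrn (day 3 replicates 1, 2, 3 and 4 and day 14 replicates 1, 4, 5 and 6, 0.0576 to 0.149) and Col6a3 (day 3 replicates 2, 3, 4 and 5 and day 14 replicates 3 and 6, 0.0578 to 0.0909). Conversely, the call was made for Col1a2 without day 14 replicate 2 (adjusted p = 0.0445). The calls of Agrn and Col6a3 were lost with equal-sum scaling, and that of Agrn also with the own total of reads.

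Myogenic genes did not move as 1 group. Of 18 tested regulators 2 rose, 2 fell and 14 did not pass (median 0.00). The called share was 22.2%, near the 18.7% of all genes. None of the myogenic regulators rose with equal-sum scaling (median -0.28), with the own total of reads (median -0.18) or without day 3 replicate 3, and 1 rose without day 3 replicate 2 or 4 or day 14 replicate 4. The number that fell was 4 with the own total of reads and without day 14 replicate 5. Pax7 of satellite cells was at -0.39 (SE 0.15, adjusted p = 0.0721), Myf5 at -0.07 (SE 0.30, adjusted p = 0.906) and Myod1 of myoblasts at 0.14 (SE 0.32, adjusted p = 0.801). Myog, myogenin of differentiating cells, was at 197, 129.7, 203, 195 and 39.6 FPKM at day 3 and from 38.4 to 84.4 with a median of 53.7 at day 14, and its log2 fold change of -1.27 (SE 0.75, adjusted p = 0.25) did not pass. Replicate 5 lay far below the other day 3 samples and within the day 14 range. Cdh15, M-cadherin of satellite cells and myoblasts, fell by 1.71 (SE 0.29, adjusted p = 0.000338), from 19.9, 16.02, 23.2, 27.1 and 5.49 FPKM at day 3 to values from 2.62 to 6.59 with a median of 4.43 at day 14, where again replicate 5 overlapped day 14. Dll1, a Notch ligand, rose by 0.84. Of 14 fusion genes 5 fell (median -0.37), 2 without day 3 replicate 4 and 3 without day 3 replicate 3 or day 14 replicate 4 or 6. Mymk, the fusion protein Myomaker, was at 94.8, 70.97, 88.3, 89.9 and 23.6 FPKM at day 3 and from 6.18 to 19.3 with a median of 17.1 at day 14, a log2 fold change of -2.14 (SE 0.62, adjusted p = 0.0168). Its partner Mymx was at 52.4, 29.6, 51.1, 52.9 and 8.42 FPKM against values from 4.87 to 21.7 with a median of 12.2 and did not pass, at -1.55 (SE 0.75, adjusted p = 0.159). Means without injury were 0.242 FPKM for Mymk and 0.0931 for Mymx. By the adjusted p, the call depended on single libraries for Dll1 (without day 3 replicates 2, 3 and 4 and day 14 replicates 1, 4 and 5, 0.0501 to 0.0893) and Mymk (day 3 replicate 4, 0.051). Conversely, the call was made for Pax7 without day 14 replicate 5 (adjusted p = 0.0389). With only day 3 and day 14 in the fit it was made for Myog (adjusted p = 0.0375) and Mymx (adjusted p = 0.0373). Equal-sum scaling and scaling to the own total of reads each ended the call of Dll1.

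Calls among developmental sarcomere genes were decreases, and those among adult fast ones were increases. Of 16 developmental isoforms 8 fell and none rose (median -0.61). Myh3, embryonic myosin heavy chain, was at 62.6, 57.02, 58.05, 69.6 and 28.8 FPKM at day 3 and from 3.697 to 14.6 with a median of 11.1 at day 14, a log2 fold change of -2.35 (SE 0.65, adjusted p = 0.0125) without overlap. Without injury it averaged 0.516 FPKM. Myl4, embryonic light chain, changed by -2.08 (SE 0.53, adjusted p = 0.00672), and Tnnt2, the cardiac troponin T that new fibres carry, by -2.27 (SE 0.42, adjusted p = 0.000645). Tnnc1, troponin C of slow and cardiac muscle, was at 83.6, 110.2, 81.04, 90.2 and 21.2 FPKM at day 3 and from 3.18 to 23.5 with a median of 13.6 at day 14 and changed by -2.48 (SE 0.66, adjusted p = 0.00899). Replicate 5 was the lone day 3 sample of Tnnc1 within the day 14 range. Perinatal myosin Myh8 was not called, at -0.22 (SE 0.71, adjusted p = 0.866). Of 12 slow-fibre genes 3 fell, Tnnc1, Tnni1 and Tpm3, while slow myosin Myh7 was at 0.21 (SE 0.49, adjusted p = 0.809). Tnnt2, Tnni1 and Tpm3 were chosen after their values were seen. Omission of 1 library took the adjusted p past the threshold for Tnni1 (without day 3 replicates 1, 2, 3 and 4 and day 14 replicates 5 and 6, 0.0507 to 0.0846).

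The adult fast sarcomere genes had 6 of 18 higher and none lower (median 0.84), with all 18 fold changes above 0, or 15 with equal-sum scaling or quantile normalization. With day 3 replicate 4 left out none was called, with replicate 3 left out 3 were, and with replicate 5 left out 9 were. Day 3 replicate 4 had the lowest muscle fibre marker sum of the samples, 19578 FPKM. Ttn, titin, was at 30.6, 28.4, 22.3, 14.2 and 33.3 FPKM at day 3 and from 39.8 to 55.3 with a median of 44.3 at day 14, a log2 fold change of 0.88 (SE 0.24, adjusted p = 0.0114) without overlap. Myl1, fast light chain, was at 3779.6, 3048, 2635, 1686 and 7573 FPKM at day 3 and from 4907 to 12260.0 with a median of 8379 at day 14, and Pvalb, the calcium buffer parvalbumin of fast fibres, at 4607, 4395, 2997, 1264 and 10251 FPKM against values from 5804 to 21645 with a median of 11111. In both, replicate 5 was the day 3 sample that reached the day 14 range, and the log2 fold changes were 1.31 (SE 0.36, adjusted p = 0.0108) and 1.58 (SE 0.51, adjusted p = 0.0291). Myh4, the main fast myosin of this muscle, did not pass, at 1.07 (SE 0.41, adjusted p = 0.0722). Of 16 calcium handling genes 6 rose (median 0.65), among them Ryr1, the calcium release channel (0.86 (SE 0.21, adjusted p = 0.00463)), Atp2a1, the calcium pump SERCA1 (0.86 (SE 0.29, adjusted p = 0.0361)), and Trdn, triadin (1.104 (SE 0.38, adjusted p = 0.0446)). With day 3 replicate 3 or 4 left out 1 calcium handling gene was called, and with day 14 replicate 2, 3, 4 or 6 left out 2 or 3 were, against 2 with equal-sum scaling. Ttn, Myl1 and Trdn were chosen after their values were seen. With 1 library left out, the adjusted p no longer passed for Ttn (without day 3 replicate 4, 0.0606), Myl1 (day 3 replicate 4, 0.0538) and Pvalb (day 3 replicates 3 and 4 and day 14 replicates 2 and 6, 0.0542 to 0.13). The same held for Atp2a1 (day 3 replicates 2, 3 and 4 and day 14 replicates 1, 2, 3 and 6, 0.0581 to 0.152) and Trdn (day 3 replicates 3 and 4 and day 14 replicates 2, 3, 4, 5 and 6, 0.0542 to 0.173). Conversely, the call was made for Myh4 without day 3 replicate 5 (adjusted p = 0.0338). The calls of Ryr1 and Atp2a1 were lost with equal-sum scaling, and that of Atp2a1 also with the own total of reads.

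**Figure D3:**
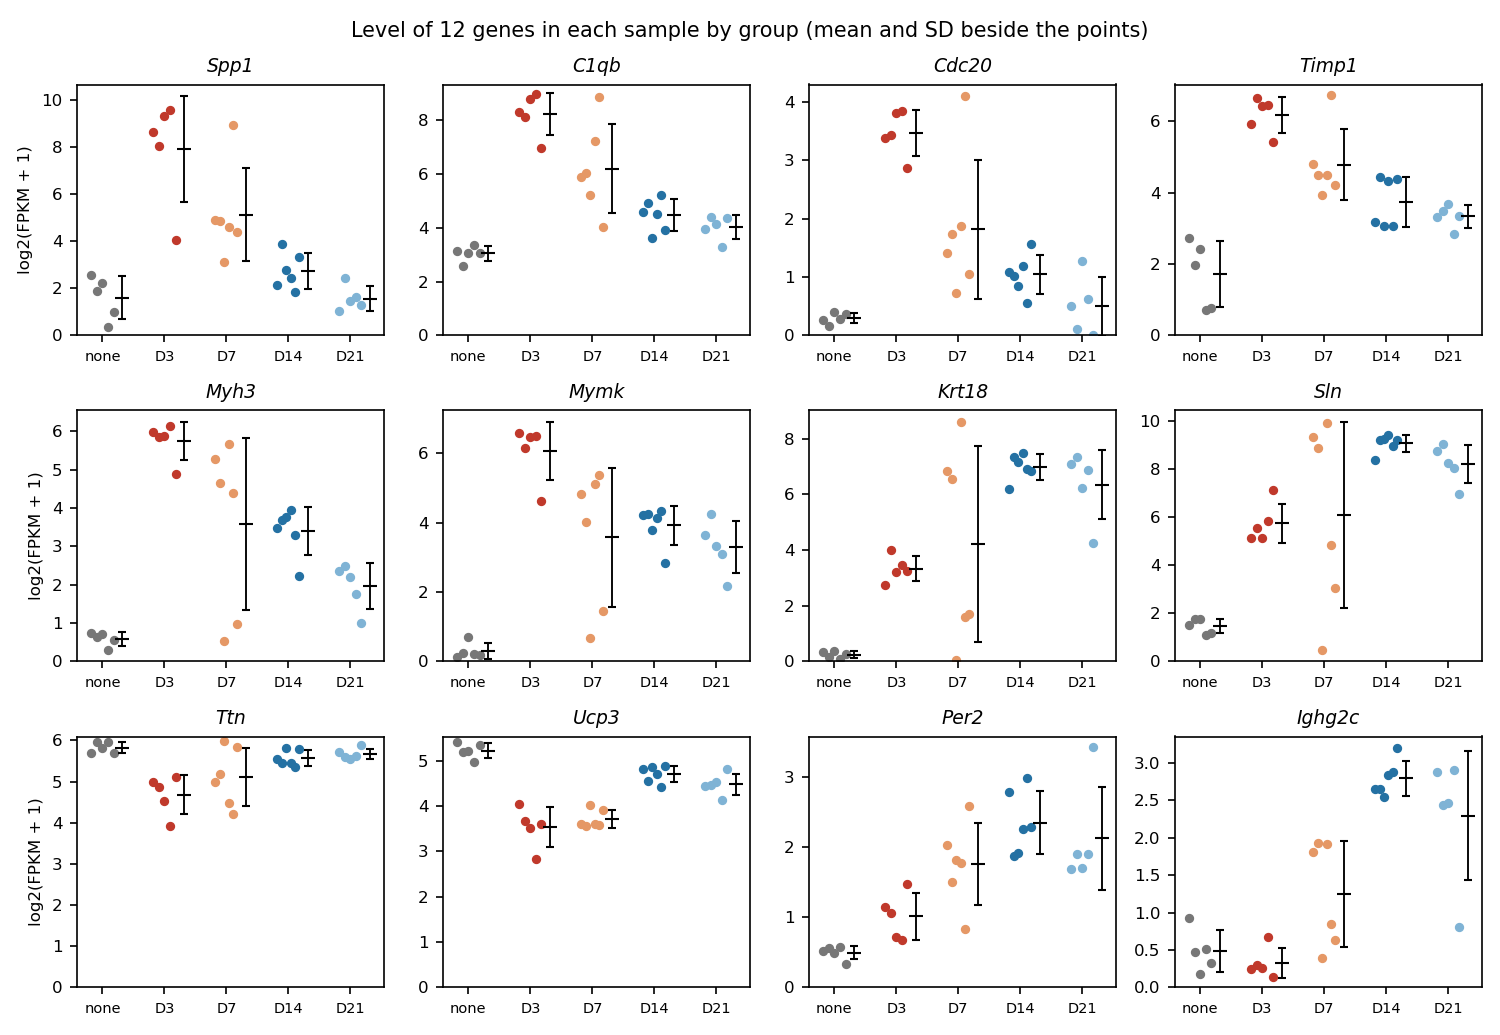
Level of 12 genes in each of the 27 samples (log2 of FPKM + 1) by group, with the mean and SD beside the points. Spp1, C1qb, Cdc20, Timp1, Myh3 and Mymk are lower at day 14 than at day 3, and Krt18, Sln, Ttn, Ucp3, Per2 and Ighg2c are higher.

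At the neuromuscular junction 3 of 15 tested genes rose and 2 fell (median 0.21, which was -0.05 with equal-sum scaling). Of all genes 5.03% were called higher and 13.7% lower, so the share that fell was near that of all genes. The number that rose was 1 with equal-sum scaling, with the own total of reads, and without day 3 replicate 3 or 4. The number that fell was 4 without day 3 replicate 5 and 1 without day 3 replicate 2 or 4. Acetylcholine receptors of adult muscle carry the epsilon subunit in place of the fetal gamma subunit. Chrne, the epsilon subunit, was at 5.59, 9.04, 2.38, 1.92 and 15.9 FPKM at day 3 and from 13.7 to 24.8 with a median of 15.2 at day 14, a log2 fold change of 1.47 (SE 0.43, adjusted p = 0.0167). Replicate 5 was highest at day 3 and overlapped day 14. Chrng, the gamma subunit, was at 19.1, 18.8, 19.3, 24.7 and 1.94 FPKM at day 3 and from 6.05 to 9.68 with a median of 7.22 at day 14, where replicate 5 alone lay below day 14 and the other day 3 samples above it. Its log2 fold change of -0.76 (SE 0.53, adjusted p = 0.346) did not pass. Chrnb1, a subunit of both forms, rose by 0.98 (SE 0.23, adjusted p = 0.00396). Rapsn, which anchors the receptor, and Colq, which anchors acetylcholinesterase, fell by 0.63 and 0.73. Of 12 tested denervation-response genes 1 rose, the deacetylase Hdac4 (1.03 (SE 0.26, adjusted p = 0.00581)). This is 8.33%, beside the 5.03% of all genes called higher. Gadd45a, a stress gene induced by denervation, was at 37.2, 41.1, 37.2, 47.6 and 14.7 FPKM at day 3 and from 57.01 to 162 with a median of 105 at day 14, with no overlap, and did not pass at 1.57 (SE 0.59, adjusted p = 0.066). Schwann cell and nerve genes had no call among 13 (1 without day 3 replicate 5 or day 14 replicate 1), with a median of 0.31. Rapsn was chosen after its values were seen. Leaving out 1 library raised the adjusted p above the threshold for Chrne (without day 3 replicates 3 and 4, 0.0691 to 0.0786), Rapsn (day 3 replicate 2, 0.0508) and Colq (day 3 replicate 4, 0.0547). Conversely, the call was made for Chrng without day 3 replicate 5 (adjusted p = 0.0442). With only day 3 and day 14 in the fit it was made for Gadd45a (adjusted p = 0.00386). Equal-sum scaling ended the calls of Chrnb1 and Hdac4, and scaling to the own total of reads ended that of Chrnb1 alone.

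Genes of mitochondrial respiration had fold changes above 0 with few calls. All 37 complex I subunits tested had a fold change above 0 (median 0.56), 31 with equal-sum scaling, and 1, Ndufa10, was called. The list complexes II to V had 32 of 33 above 0 (median 0.44), 24 after that rescaling, and 1, Uqcrc1, called. The called shares of these lists, 2.70% and 3.03%, were below the 5.03% of all genes called higher. The number called for complex I was 8 without day 3 replicate 5, 11 without day 14 replicate 1, 19 with quantile normalization, 25 with sample quality weights, and 0 without day 3 replicate 3 or 4 and with equal-sum scaling. Citric acid cycle genes had 5 of 18 higher (median 0.46), which was 2 without day 3 replicate 3 or 4, 3 without day 14 replicate 3 or 6, 8 without day 3 replicate 5, 1 with the own total of reads and 0 with equal-sum scaling. For complexes II to V the number was 5 without day 3 replicate 5, 4 without day 14 replicate 1 and 0 without day 3 replicate 4. No gene of these lists was lower. Uqcrc1, a core subunit of complex III, was at 159, 153, 125, 94.5 and 212 FPKM at day 3 and from 219.9 to 345 with a median of 223 at day 14, a log2 fold change of 0.81 (SE 0.22, adjusted p = 0.0111). Cs, citrate synthase, changed by 0.58 (SE 0.20, adjusted p = 0.0482), and Idh3g, a subunit of isocitrate dehydrogenase, by 0.73 (SE 0.19, adjusted p = 0.0085). Genes of the mitochondrial genome itself, a family chosen after its values were seen, had no call among 35 and a median of 0.66. Idh3g was chosen after its values were seen. By the adjusted p, the call depended on single libraries for Ndufa10 (without day 3 replicates 3 and 4, 0.0535 to 0.0704), Uqcrc1 (day 3 replicate 4, 0.0559) and Cs (day 3 replicates 2, 3 and 4 and day 14 replicates 1, 2, 3, 4 and 6, 0.0529 to 0.193). The calls of Ndufa10, Uqcrc1, Cs and Idh3g were lost with equal-sum scaling, and that of Cs also with the own total of reads.

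Fatty acid genes had 4 of 20 higher and none lower (median 0.29, which was -0.04 with equal-sum scaling), with 2 higher without day 3 replicate 3 or 4 and 1 higher with equal-sum scaling. Ucp3, uncoupling protein 3 of muscle mitochondria, was at 15.4, 11.8, 10.5, 6.08 and 11.2 FPKM at day 3 and from 20.4 to 28.3 with a median of 26.3 at day 14, a log2 fold change of 1.17 (SE 0.16, adjusted p = 0.000147). Every day 14 sample was above every day 3 sample, and muscles without injury averaged 36.6. Pdk4, a kinase that turns pyruvate dehydrogenase off, was at 27.6, 22.3, 23.05, 24.6 and 14.2 FPKM at day 3 and from 28.7 to 61.7 with a median of 50.97 at day 14 and changed by 1.02 (SE 0.26, adjusted p = 0.00733). Fabp3, the fatty acid binding protein of muscle, changed by 1.03 (SE 0.32, adjusted p = 0.0235). Omission of 1 library took the adjusted p past the threshold for Fabp3 (without day 3 replicates 3 and 4 and day 14 replicate 6, 0.0587 to 0.0965). Equal-sum scaling ended the calls of Pdk4 and Fabp3, and scaling to the own total of reads ended that of Pdk4 alone.

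Glycolysis genes were listed as non-muscle and muscle forms. Of 14 tested non-muscle genes 6 fell and none rose (median -0.28). Of 22 muscle glycolysis and glycogen genes 1 rose and none fell (median 0.46, which was 0.12 with equal-sum scaling), a share near the 5.03% of all genes called higher, and none rose with equal-sum scaling or without day 3 replicate 4 and 2 without day 3 replicate 5. The 1 was Phkg1, the catalytic subunit of phosphorylase kinase, at 0.94 (SE 0.28, adjusted p = 0.0217). Eno1 and Pgam1, the widely expressed enolase and phosphoglycerate mutase, changed by -1.49 (SE 0.26, adjusted p = 0.000482) and -1.599 (SE 0.36, adjusted p = 0.00261). Eno1 was at 73.8, 77.5, 117, 126 and 58.2 FPKM at day 3 and from 28.2 to 34.2 with a median of 29.8 at day 14. Their muscle partners Eno3 and Pgam2 did not pass, at 0.71 (SE 0.35, adjusted p = 0.159) and 0.96 (SE 0.42, adjusted p = 0.116). Hk3, a hexokinase of myeloid cells, fell by 1.67. The widely expressed cytochrome oxidase subunits Cox6a1 and Cox8a changed by -0.88 (SE 0.24, adjusted p = 0.00977) and -0.80 (SE 0.21, adjusted p = 0.00936), and their muscle partners Cox6a2 and Cox8b did not pass, at 0.67 (SE 0.40, adjusted p = 0.259) and 0.82 (SE 0.41, adjusted p = 0.163). Cox8a was at 313, 280.2, 321, 320.4 and 206 FPKM at day 3 and from 101 to 203 with a median of 176 at day 14, without overlap. The difference between partners was not tested. Eno1, Pgam1, Eno3, Pgam2, Cox6a1, Cox8a, Cox6a2 and Cox8b were chosen after their values were seen. With 1 library left out, the adjusted p no longer passed for Phkg1 (without day 3 replicate 4, 0.107). The call of Phkg1 was lost with equal-sum scaling but not with the own total of reads.

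**Figure D4:**
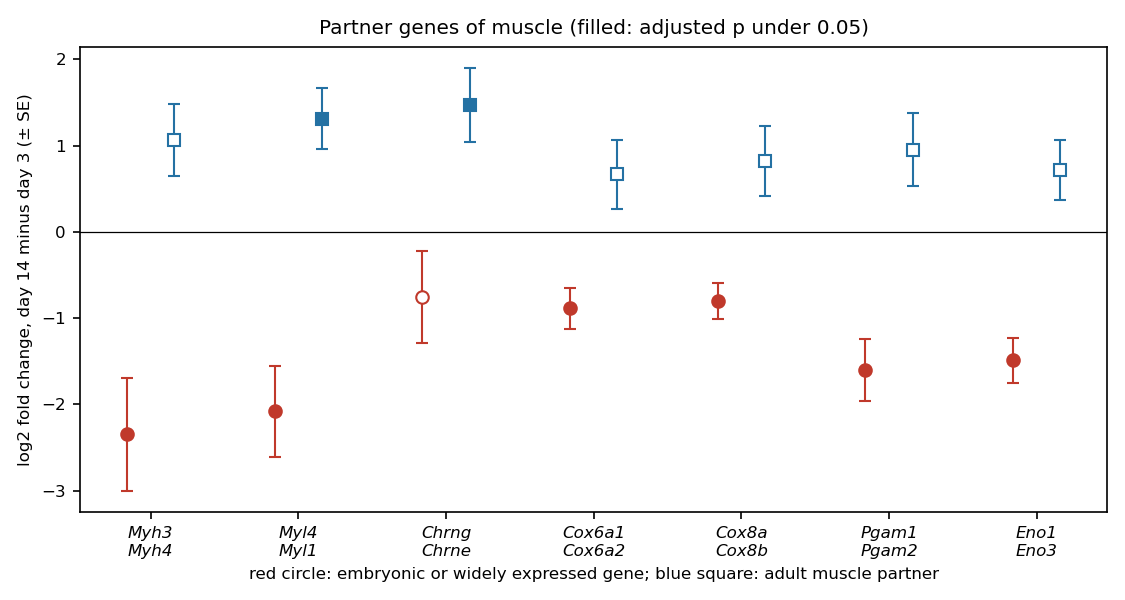
Log2 fold change from day 3 to day 14 with its SE for 7 pairs of partner genes, with the embryonic or widely expressed member as a red circle and the adult muscle member as a blue square, filled where the adjusted p was under 0.05. All 7 circles lie below 0, from -2.35 for Myh3 to -0.76 for Chrng, and all 7 squares above, from 0.67 for Cox6a2 to 1.47 for Chrne, with 2 of the squares called, but most of the pairs were chosen after their values were seen, so the split is no test.

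Calls among genes of the circadian clock were increases. Of 16 tested 8 rose and none fell (median 0.52), and 7 or 8 were called with any sample left out. Per2, a repressor of the clock, was at 1.203, 1.08, 0.641, 0.592 and 1.77 FPKM at day 3 and from 2.67 to 6.87 with a median of 3.81 at day 14, a log2 fold change of 1.34 (SE 0.28, adjusted p = 0.00168). Per1 and Per3, the other members of its family, changed by 1.08 (SE 0.27, adjusted p = 0.00634) and 1.16 (SE 0.22, adjusted p = 0.000832). Dbp, a transcription factor whose level follows the clock, was at 31.3, 28.6, 20.6, 18.8 and 11.3 FPKM at day 3 and from 42.8 to 59.3 with a median of 49.2 at day 14 and changed by 1.22 (SE 0.20, adjusted p = 0.000299). The samples did not overlap for any of these 4. Tef, of the same family as Dbp, and Nr1d2, a nuclear receptor of the clock, changed by 1.02 and 0.87. With equal-sum scaling 6 were higher and 1 was lower. The time of day of collection is not given in the sources used here, and its part in these values was not tested. Tef and Nr1d2 were chosen after their values were seen. Equal-sum scaling ended the call of Nr1d2, and scaling to the own total of reads did not.

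Vessel and fat genes had few calls. Of 20 endothelial and pericyte genes 2 rose (median 0.38), Rgs5 and Abcc9 of pericytes, at 0.83 (SE 0.23, adjusted p = 0.0139) and 0.72 (SE 0.20, adjusted p = 0.0131), and 6 rose without day 3 replicate 5, 1 without replicate 3, and none without replicate 4 or with equal-sum scaling or the own total of reads. Vegfa, the vascular growth factor that also muscle fibres make, was at 16.4, 15.3, 9.02, 6.51 and 35.1 FPKM at day 3 and from 22.2 to 62.8 with a median of 37.98 at day 14 and changed by 1.41 (SE 0.38, adjusted p = 0.0109), with replicate 5 in the day 14 range. Of 13 tested adipocyte genes 2 rose (median 0.52), or 1 with equal-sum scaling. Car3, carbonic anhydrase 3 of fat and slow fibres, was at 409, 374, 371, 249 and 338 FPKM at day 3 and from 648 to 1532 with a median of 1292 at day 14, a log2 fold change of 1.73 (SE 0.30, adjusted p = 0.000488) without overlap, and Pnpla2, a triglyceride lipase of fat and muscle, changed by 0.73 (SE 0.18, adjusted p = 0.0044). The defining adipocyte markers Adipoq and Cfd did not pass, at 0.99 (SE 0.58, adjusted p = 0.248) and 1.84 (SE 0.87, adjusted p = 0.146). The red blood cell genes had no call among 5. Abcc9, Vegfa and Pnpla2 were chosen after their values were seen. Leaving out 1 library raised the adjusted p above the threshold for Rgs5 (without day 3 replicates 3 and 4, 0.0588 to 0.0629), Abcc9 (day 3 replicate 4, 0.0598) and Vegfa (day 3 replicate 4, 0.0547). The calls of Rgs5, Abcc9 and Pnpla2 were lost with equal-sum scaling, and those of Rgs5 and Abcc9 also with the own total of reads.

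**Figure D5:**
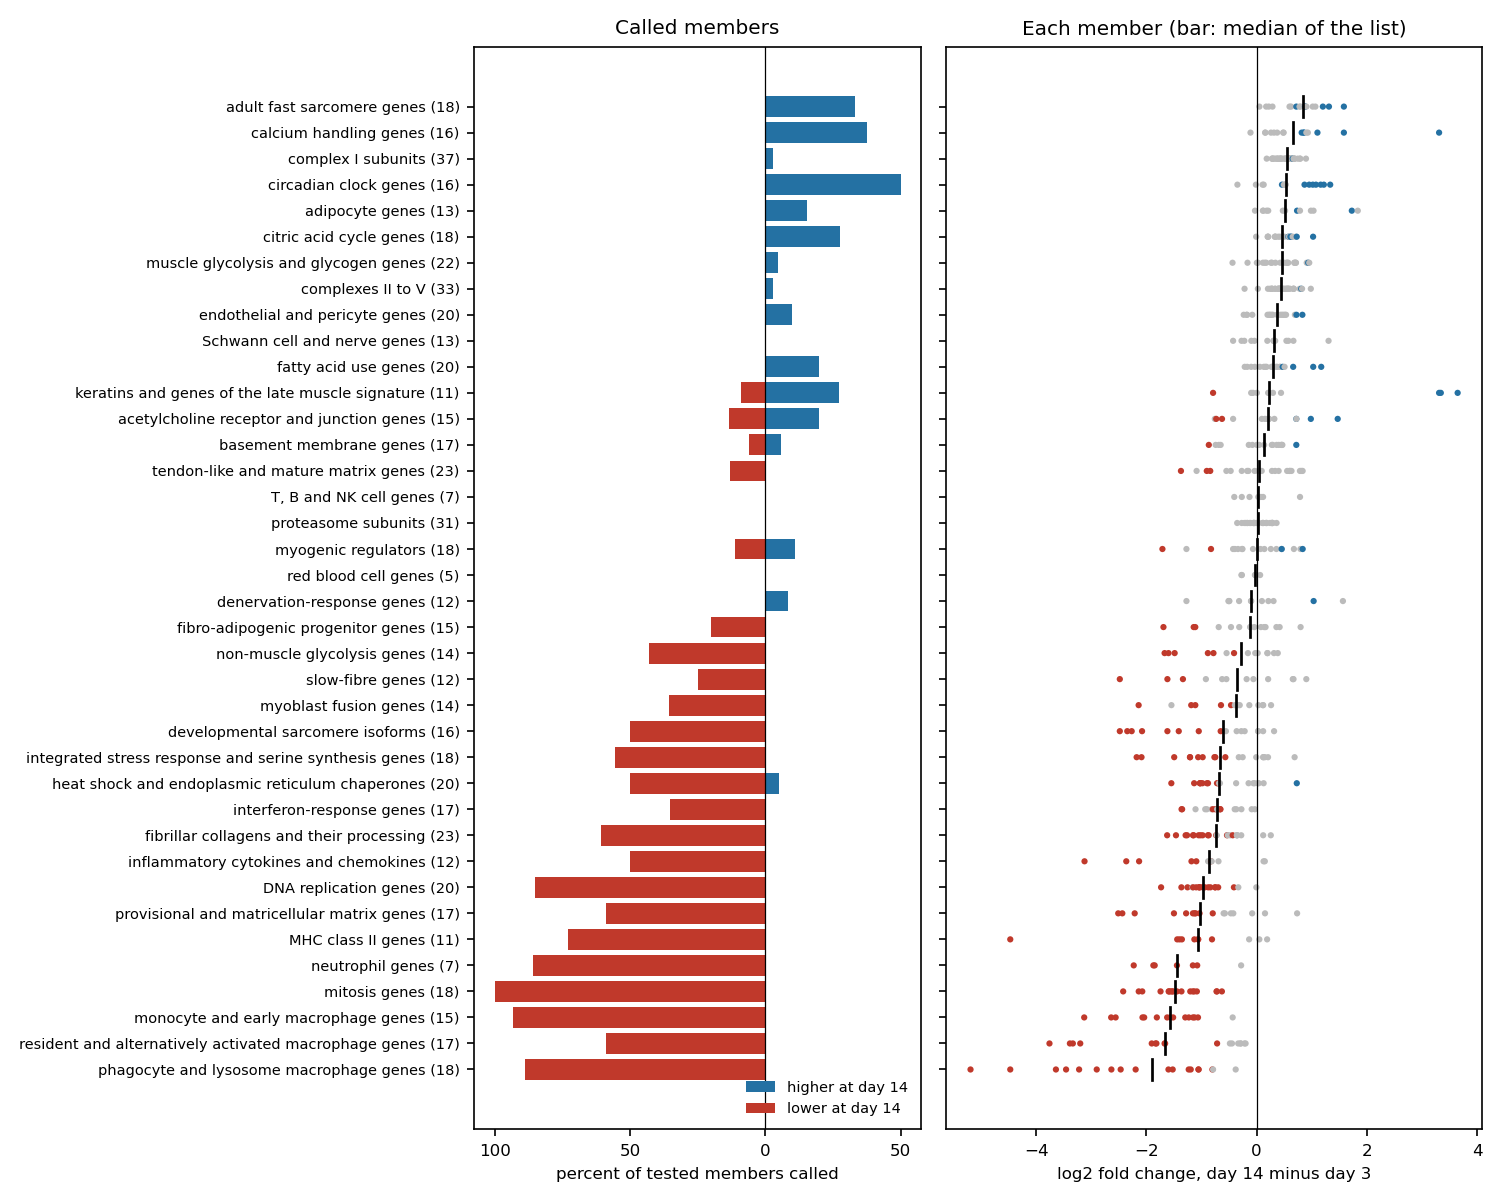
Percent of the tested members of 38 gene lists called higher (blue) or lower (red) at day 14, and the log2 fold change of each member with the list median as a bar. The number of tested members is in parentheses. Mitosis genes were lower in 18 of 18 and phagocyte and lysosome genes in 16 of 18, and the circadian clock genes had the highest share of calls above 0, 8 of 16.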

How the data were processed

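RNA sequencing of 27 tibialis anterior samples in 5 groups was analysed, of which 5 of day 3 and 6 of day 14 were compared. The authors aligned reads with HISAT2 2.0.5 and counted them per gene with featureCounts 1.5.0-p3, per the submitters' processing notes, and deposited FPKM. How FPKM was scaled between samples and the genome build are not given in the sources used here. Multiplied by gene length, the FPKM were whole multiples of 1 read in 100% of values (tolerance 0.1), from which totals of reads were recovered. Coordinates of genes are those of the deposited table, and 98.3% of its 54532 genes have the same coordinates in an annotation of GRCm38. No columns of sample values were left unmapped (0).

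Genes that reached an FPKM of 0.5 in 5 or more of the 27 samples were tested. Since day 3 has 5 samples and day 14 has 6, a gene could pass through either group alone. This favours decreases among genes low outside day 3 and increases among genes low outside day 14. The test was run on log2(FPKM + 1) with limma 3.58.1 in R 4.3.3. It used 1 mean per group, moderated variances with a trend and a two-sided contrast of day 14 minus day 3. Calls had a Benjamini-Hochberg adjusted p under 0.05 over all genes tested. Because 1 is added to FPKM, fold changes of low genes are understated. Other settings were pseudocounts of 0.1 and 0.5 and no filter or an FPKM minimum of 1. Other scalings were quantile, median-ratio, the same sum of FPKM in each sample, and the own total of reads. Variance models, blocks, a fit of day 3 and day 14 alone, and samples left out were also used. The steps were tested on simulated data. Depth limits the precision for genes near the FPKM minimum.

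The gene lists, the comparison and its settings were chosen with earlier results of these data known. Genes were named if they were among the 10 largest increases or decreases of called genes without overlap, among the first 4 of a list, the largest called change of a list in each direction, or a cell type marker. Others are said to be chosen after their values were seen. Promoters were RefSeq's for GRCm38.p6. Tables were made with pandas 2.3.3 and numpy 2.4.6 and plots with matplotlib 3.10.9.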

Additional observations from a re-analysis of the deposited data

Results flagged for a closer look

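Within the groups of day 3 and day 14, 278 sets of values were examined, of named genes, total reads and the share of mitochondrial reads. A sample was flagged if its gap to its neighbour exceeded the 95% limit of Dixon's test for the group's range. Such gaps were found in 20, and 14 of the 20 were in day 3 replicate 5. For normal values the limit would give about 13.9. The sets share libraries and many genes were picked by their values, so the 20 cannot be weighed against that number. All values are log2(FPKM + 1).

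Among these gaps, day 3 replicate 5 lay below the other 4 day 3 samples for 13 genes. Of macrophage and matrix genes, Spp1 was at 4.046 (others 8.036 to 9.578), Mrc1 at 2.537 (3.142 to 3.315) and Tnc at 2.193 (3.892 to 4.56). Mthfd2 of folate metabolism was at 2.323 (3.245 to 3.493) and Gadd45a at 3.971 (5.255 to 5.604). Among genes of myoblasts and fusion, Myod1 was at 5.017 (6.19 to 6.588), Myog at 5.344 (7.03 to 7.676) and Mymk at 4.619 (6.169 to 6.582). Among developmental sarcomere and junction genes, Myh3 was at 4.896 (5.858 to 6.142), Tnnt2 at 3.29 (4.561 to 4.977) and Tnnc1 at 4.471 (6.358 to 6.797), with Chrng at 1.557 (4.305 to 4.683) and Colq at 1.253 (1.996 to 2.187). Myh8, perinatal myosin, was the gene for which this sample lay above the others by such a gap, at 5.539 (3.029 to 3.505).

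The other 6 gaps were spread over 5 libraries. Col5a1 was at 4.54 in day 3 replicate 1 (others 4.883 to 4.995), and Pnpla2 was at 5.924 there (5.635 to 5.648). Ryr1 was at 5.097 in day 3 replicate 4 (5.632 to 5.803). At day 14, Gm34006 was at 2.743 in replicate 1 (3.705 to 4.192), Tnc at 2.088 in replicate 2 (1.204 to 1.518) and Mymk at 2.843 in replicate 6 (3.792 to 4.341).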

How the results depend on the processing

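The 2738 calls became 4830 with sample quality weights, and ran from 1668 to 3334 with 1 sample left out, lowest without day 3 replicate 4. The 736 higher genes became 1418 with quantile normalization, 158 with equal-sum scaling, 274 with each sample's own total of reads, 1850 with sample quality weights and 1190 without the replicates numbered 5 of day 3 and day 7, and ran from 316 to 1049 with 1 sample left out. The 2002 lower genes ran from 1352 to 2285 with 1 sample left out and stayed within 1.5 times of their number in all 26 alternatives. The cause of these differences was not tested. The split into higher and lower genes therefore holds for the authors' scaling.

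Of 113 called genes named in the text, 75 kept their direction and their call in all 26 alternatives, and none of the 113 reversed. These genes had 2938 values under alternatives, of which 220 kept the direction but missed the threshold. Of 24 named genes without a call, 32 of 621 values passed the threshold and 28 changed sign. With only day 3 and day 14 in the fit, Il1b, Gadd45a, Myog and Mymx gained a call. In that fit Igkc, Hspa1a, Agrn, Atp2a1 and Cs lost theirs. The sign changes were in 7 genes with small fold changes, and the cause was not tested. With equal-sum scaling the log2 fold change was -0.0306 for Cd79a, -0.22 for Atf4, -0.19 for Atf5 and -0.20 for Myod1, and with the own total of reads -0.14 for Atf4, -0.11 for Atf5 and -0.12 for Myod1. With a pseudocount of 0.1 Cd79a was at -0.0773. With voom weights Cd79a was at -0.44 and Myf5 at 0.0198, and with sample quality weights Myf5 was at 0.13, Myod1 at -0.0597 and Myh8 at 0.27. Without the replicates numbered 5 of day 3 and day 7, Myf5 was at 0.0453, Myod1 at -0.14 and Myh8 at 0.24. With 1 sample left out Cd79a ran from -0.0684 to 0.26, Myf5 from -0.25 to 0.0916, Myod1 from -0.14 to 0.25 and Myh8 from -0.39 to 0.24.

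Replicate numbers did not pair the samples: deviations from the group means of same-numbered day 3 and day 14 samples correlated at -0.0584, 0.1002, -0.0885, 0.0886 and 0.183, and 1 of 5 day 3 samples correlated best with its own number. With the replicate block the calls were 2453 (628 higher and 1825 lower), and 2536 with the replicate letter of the labels as the block. With the replicate block and the block by letter, Myf5 was at 0.0746 and 0.0025, Myh8 at 0.14 and 0.0894, and Myh7 at -0.0596 and -0.0766.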
